A study of Mus musculus with 2 samples.

Results

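The 35 genes described here encode proteins of the cell division cycle. They were listed by name as cell cycle genes, under a rule that uses no measured value but with earlier results of these data known, out of the 21938 protein-coding genes of the GENCODE M21 annotation of the mouse genome (build mm10), and all 35 names matched 1 gene each. The question they pose is whether the promoters of genes that dividing cells use are closed or open to DNase I in a tissue made mostly of cells that have left the cycle. The data are DNase-seq libraries, in which the enzyme DNase I cuts DNA that is not wrapped tightly, and the cuts are sequenced and gathered into peaks. Both libraries came from the left cerebral cortex of male B6CASTF1/J mice, which are hybrids of C57BL/6J with CAST/EiJ, at 14 days of age. The label of replicate 1 names 3 males and that of replicate 2 names 1 male, and both carry the same donor identifier, so it is not certain that they came from different animals. There was 1 group and no treated or control tissue, hence no test between conditions, and spreads are SDs over n = 2 libraries.

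Cell cycle genes are switched on in waves. Genes of DNA replication rise between G1 and S phase and are known as targets of E2F transcription factors, which the retinoblastoma protein holds in check. Genes of mitosis peak in G2 and M phase, and many carry a CCAAT box, bound by NF-Y, and a short element called the cell cycle genes homology region (CHR), bound by the LIN54 subunit of the DREAM and MuvB complexes. In resting cells DREAM keeps both groups repressed. In the cortex at this age neurons are postmitotic, while glial precursors and vascular cells still divide.

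The authors listed 150726 peaks in replicate 1 and 155536 in replicate 2 in the larger of their lists, and 380111 and 379156 footprints, which are short stretches inside accessible DNA with fewer cuts than their surroundings. Read totals were not given in the files used, so the depth of the libraries in reads is unknown. Peaks were present at 6 of 6 excitatory neuron, 5 of 5 inhibitory neuron, 5 of 5 astrocyte and 5 of 5 oligodendrocyte precursor genes in both libraries. Microglial genes had peaks at 4 of 5 and 5 of 5 promoters, endothelial genes at 3 of 5 in each library (Cldn5 and Tek had none), and neural progenitor genes at 7 of 7 and 6 of 7. Of 5 liver genes, 1 had a weak peak in replicate 1 and none had a peak in replicate 2. Among all protein-coding genes, 66.7% had a peak at the promoter in both libraries. In a bulk sample, few cells with an open site and weak opening in many cells cannot be told apart.

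All 35 cell cycle genes had a promoter peak, meaning a peak that overlapped the 1000 bp on either side of an annotated start, in both libraries. Among all protein-coding genes the share was 66.7%. Every one of the 35 was also open in the authors' smaller, stricter lists, where the share among all protein-coding genes was 62.2%. The signal of the strongest promoter peak, the authors' scaled maximum of cut density, had a median of 5.23 in replicate 1 and 6.93 in replicate 2 over the 35 genes (mean 6.08 ± 1.20). The medians over all protein-coding promoters open in each library were 3.47 and 3.91 (mean 3.69 ± 0.308). Of the 35 genes, 30 lay above the open-promoter median in replicate 1 and 29 in replicate 2. The quartiles of the 35 ran from 4.07 to 7.65 in replicate 1 and from 4.94 to 10.5 in replicate 2, against 1.42 to 6.11 and 1.56 to 7.45 for all open promoters. Ranked among all open promoters, the median cell cycle gene stood at percentile 67.5 in replicate 1 and 71.9 in replicate 2. The extent of open DNA did not stand out in the same way. Bases accessible at a false discovery rate up to 0.001 in the promoter windows had medians of 642 and 549 bp for the 35 genes. The medians were 760 and 662 bp for genes open in both libraries, and 465 and 394 bp for all protein-coding genes, open or not.

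**Figure D1:**
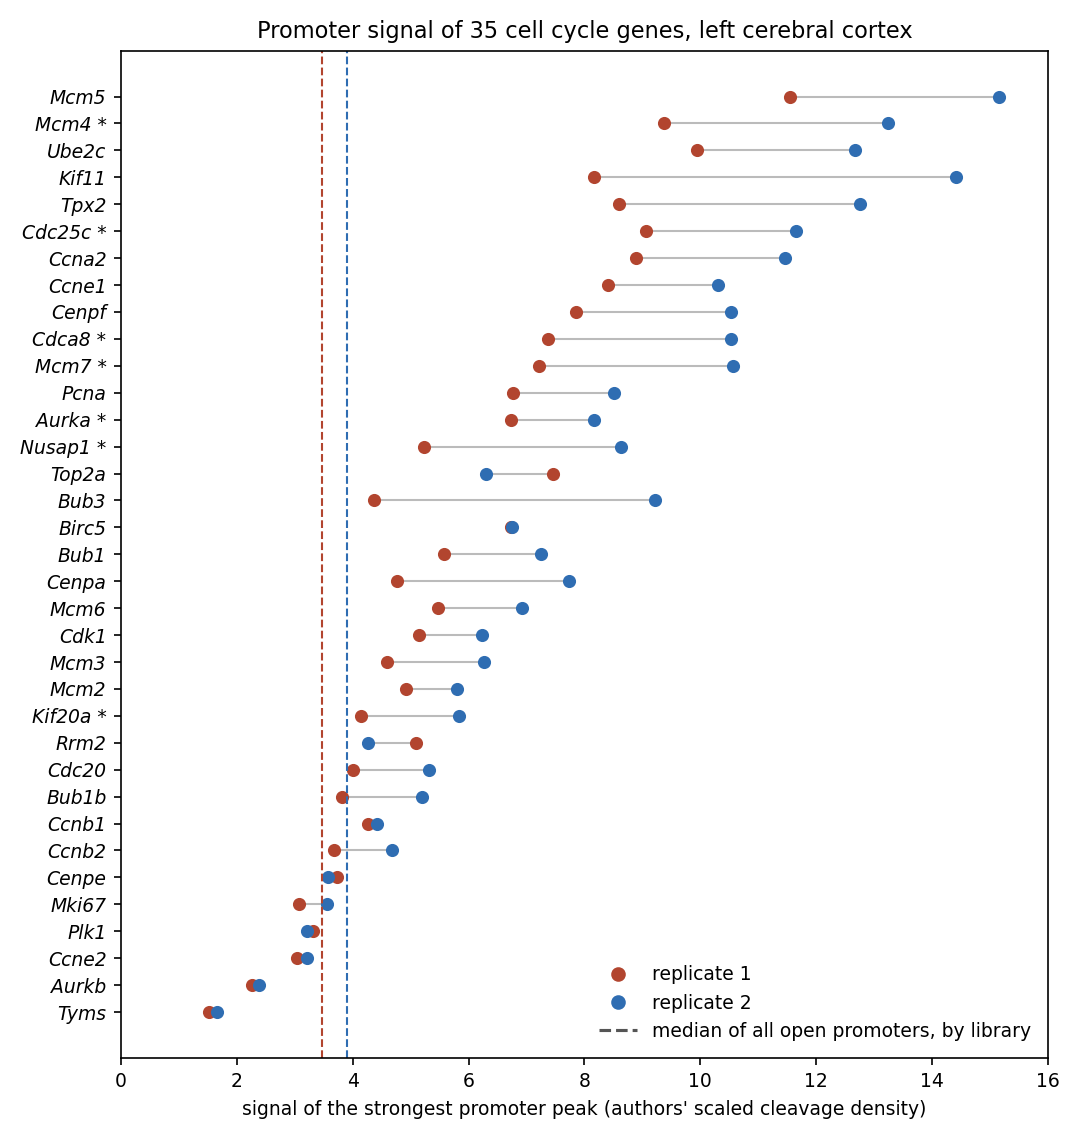
Signal of the strongest promoter peak (x axis, the authors' scaled cut density) for each of the 35 cell cycle genes (y axis, ordered by mean), with 1 point per library, and an asterisk where another protein-coding gene starts within 1000 bp. Dashed lines mark the median of all open protein-coding promoters in each library, 3.47 and 3.91; 30 and 29 genes lie to the right of them.

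The replication genes included the highest promoter. Mcm5, a subunit of the MCM helicase, stood highest of the 35 at 11.6 in replicate 1 and 15.2 in replicate 2. Mcm4, another subunit, reached 9.37 and 13.2, and Mcm7 7.22 and 10.6. Both share their promoter window with a neighbour, so that their peaks cannot be assigned to 1 gene. The other subunits were lower, with Mcm6 at 5.46 and 6.93, Mcm3 at 4.59 and 6.27, and Mcm2 at 4.93 and 5.80. Pcna, the sliding clamp of DNA polymerases, had 6.76 and 8.51. All 7 genes of this group lay above the open-promoter median in both libraries, and their medians were 6.76 and 8.51, but the 6 helicase genes differed widely among themselves.

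Nucleotide synthesis gave the lowest promoter of all. Tyms, thymidylate synthase, had 1.51 in replicate 1 and 1.66 in replicate 2, near percentile 26.3 and 26.2 of open promoters. Rrm2, the small subunit of ribonucleotide reductase, had 5.10 and 4.26. Among genes that peak at the entry into S phase, Tyms was therefore far below the helicase genes in each library.

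Cyclins differed within their own families. Ccna2, which drives S phase and the approach to mitosis, had 8.90 in replicate 1 and 11.5 in replicate 2. Ccne1 and Ccne2 encode the cyclins E1 and E2 of the G1/S transition; Ccne1 had 8.42 and 10.3, and Ccne2 had 3.04 and 3.21. The strongest promoter peak of the E1 gene was thus higher than that of the E2 gene in both libraries. By accessible bases in the promoter windows the order was the reverse, with 1574 and 1135 bp for Ccne1 and 1746 and 1613 bp for Ccne2. The mitotic cyclins were lower than Ccna2, with Ccnb1 at 4.26 and 4.42 and Ccnb2 at 3.68 and 4.67. Their partner kinase gene Cdk1 had 5.15 and 6.23. Cdc25c, whose phosphatase activates Cdk1, had 9.07 and 11.7, in a promoter window it shares with Gm3550. The lowest library of Ccna2, Ccne1 and Cdc25c was above the highest library of Ccnb1, Ccnb2, Ccne2 and Cdk1.

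The genes used as labels of proliferating cells did not have the strongest promoters. Mki67, which encodes the Ki-67 protein that coats mitotic chromosomes, had 3.07 in replicate 1 and 3.55 in replicate 2, below the open-promoter median in both. Top2a, which untangles sister chromatids, had 7.45 and 6.30. Mki67 thus ranked 31 of 35 by mean signal, and Top2a 15.

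Of the mitotic kinases and the machinery of anaphase, Plk1, a kinase of mitotic entry and spindle poles, was low at 3.32 in replicate 1 and 3.22 in replicate 2. Aurka, a spindle pole kinase, had 6.73 and 8.16 in a window shared with Cstf1. Ube2c, the ubiquitin-conjugating enzyme of the anaphase-promoting complex, ranked 3 with 9.94 and 12.7, while Cdc20, an activator of that complex, had 4.01 and 5.31. Ube2c was above Cdc20 in both libraries. The chromosomal passenger complex spanned nearly as wide a range: its kinase gene Aurkb had 2.27 and 2.39, Birc5 (survivin) had 6.73 and 6.76, and Cdca8 (borealin) had 7.37 and 10.5 in a window shared with 9930104L06Rik. Subunits of 1 complex thus had promoters on either side of the genome's open-promoter median.

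Spindle checkpoint genes lay in the middle of the order. Bub1, a checkpoint kinase, had 5.57 in replicate 1 and 7.24 in replicate 2, Bub1b (BubR1) had 3.82 and 5.20, and Bub3, the protein that docks both at kinetochores, had 4.37 and 9.23. At the centromere, Cenpa, the histone H3 variant that marks it, had 4.76 and 7.73. Cenpe, a kinetochore motor, had 3.73 and 3.58, and Cenpf, a large kinetochore protein, had 7.85 and 10.5. Bub3 and Cenpa were 2 of the 4 genes that differed most between the libraries.

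Spindle motors and assembly factors included some of the highest promoters. Kif11, the motor that separates spindle poles, had 8.16 in replicate 1 and 14.4 in replicate 2, and Tpx2, which activates Aurka on the spindle, had 8.60 and 12.8. Nusap1, a microtubule-binding protein, had 5.23 and 8.62 in a window shared with Oip5. Kif20a, a motor of cytokinesis, had 4.13 and 5.84. The start of Kif20a lies 12 bp from that of Brd8 on the other strand, and it was the only one of the 35 genes whose strongest promoter peak was a different peak in each library.

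Most of the 35 signals were lower in replicate 1 than in replicate 2. The log2 ratio of replicate 1 over replicate 2 had a median of -0.35 over the 35 genes, against -0.22 over all protein-coding promoters open in both. It ran from -1.08 (Bub3), -0.82 (Kif11) and -0.72 (Nusap1) up to 0.06 (Cenpe), 0.24 (Top2a) and 0.26 (Rrm2). With each library divided by its own median over open promoters, the median ratio of the 35 was -0.18. Neighbours in the order by signal mostly do not differ beyond the spread between libraries. The 8 highest genes exceed the 6 lowest in every library, but both sets were picked by mean signal in these same libraries.

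Another protein-coding gene started within 1000 bp of 7 of the 35 genes, all on the opposite strand; the share among all protein-coding genes was 14.6%. Among genes open in both libraries, which all 35 are, the share was 20%, the same as among the 35. The distances between the nearest starts were 12 bp for Kif20a and Brd8, 131 bp for Cdca8 and 9930104L06Rik, 146 bp for Aurka and Cstf1, 160 bp for Mcm7 and Ap4m1, 171 bp for Nusap1 and Oip5, 466 bp for Mcm4 and Prkdc, and 622 bp for Cdc25c and Gm3550. Without these 7 the median signal was 5.01 in replicate 1 and 6.29 in replicate 2 (mean 5.65 ± 0.901).

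Footprints lay in the strongest promoter peak of all 35 genes in both libraries, and in 97.6% of protein-coding promoters open in both. The peaks held 161 footprints in replicate 1 and 157 in replicate 2, with a median of 5 and 4 per gene, the same as over promoters open in both. Of these footprints 77.6% and 77.1% overlapped a footprint of the other library. The same share for other promoters is not given here, so these values cannot be called particular to the 35 genes.

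Short sequence words were counted in the promoters of the replication and the mitotic genes, with no test of the difference between these lists. The sequence from 250 bp before to 50 bp after the start nearest the strongest peak (300 bp) was searched on both strands for short words, each set counted on its own even where words share bases. The CHR set was TTTGAA and TTCGAA, the E2F set TTTCCCGC, TTTCGCGC, TTTGCCGC and TTTGGCGC, and the NF-Y word was CCAAT. A match describes the letters only. The promoters of 6 genes are shown to place the words that lie in footprints of both libraries. Each is read 5′ to 3′ on the strand of the gene from the GRCm38 reference (mm10), with CHR, E2F and CCAAT words of either strand in capitals. They are 3 mitotic genes, Top2a (chr11:99024140-99024439, minus strand), Ccnb2 (chr9:70421498-70421797, minus strand) and Cdk1 (chr10:69352889-69353188, minus strand), and 3 helicase genes, Mcm5 (chr8:75109319-75109618, plus strand), Mcm6 (chr1:128359615-128359914, minus strand) and Mcm7 (chr5:138171769-138172068, minus strand).
Top2a: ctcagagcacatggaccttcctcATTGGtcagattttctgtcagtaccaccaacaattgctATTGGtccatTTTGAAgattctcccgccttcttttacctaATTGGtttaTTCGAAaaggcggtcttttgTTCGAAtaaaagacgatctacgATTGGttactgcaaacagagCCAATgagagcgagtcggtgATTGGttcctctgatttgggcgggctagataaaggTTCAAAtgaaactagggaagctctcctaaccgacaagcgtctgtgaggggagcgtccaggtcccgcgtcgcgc
Ccnb2: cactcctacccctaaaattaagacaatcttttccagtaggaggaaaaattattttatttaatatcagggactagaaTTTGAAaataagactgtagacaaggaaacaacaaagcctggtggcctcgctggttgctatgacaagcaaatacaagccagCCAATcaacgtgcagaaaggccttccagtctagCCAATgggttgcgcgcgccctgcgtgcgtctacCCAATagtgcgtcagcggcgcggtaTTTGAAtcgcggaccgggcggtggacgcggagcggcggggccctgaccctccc
Cdk1: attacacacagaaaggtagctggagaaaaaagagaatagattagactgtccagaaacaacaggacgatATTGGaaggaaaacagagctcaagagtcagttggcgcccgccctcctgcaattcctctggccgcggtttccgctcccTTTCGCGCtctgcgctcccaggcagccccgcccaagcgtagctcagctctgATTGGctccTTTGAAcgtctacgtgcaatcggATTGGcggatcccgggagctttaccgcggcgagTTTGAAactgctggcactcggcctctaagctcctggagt
Mcm5: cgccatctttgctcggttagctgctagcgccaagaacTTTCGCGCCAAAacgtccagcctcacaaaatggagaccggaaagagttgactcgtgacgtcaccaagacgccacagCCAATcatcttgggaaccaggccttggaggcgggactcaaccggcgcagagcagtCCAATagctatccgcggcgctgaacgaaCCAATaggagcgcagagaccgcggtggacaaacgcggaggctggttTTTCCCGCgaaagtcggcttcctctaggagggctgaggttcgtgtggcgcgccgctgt
Mcm6: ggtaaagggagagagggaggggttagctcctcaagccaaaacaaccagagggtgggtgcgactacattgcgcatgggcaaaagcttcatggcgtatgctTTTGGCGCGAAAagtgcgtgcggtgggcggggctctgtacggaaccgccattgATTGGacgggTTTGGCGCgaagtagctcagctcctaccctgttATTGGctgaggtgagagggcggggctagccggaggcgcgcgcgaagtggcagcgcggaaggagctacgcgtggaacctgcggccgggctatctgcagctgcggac
Mcm7: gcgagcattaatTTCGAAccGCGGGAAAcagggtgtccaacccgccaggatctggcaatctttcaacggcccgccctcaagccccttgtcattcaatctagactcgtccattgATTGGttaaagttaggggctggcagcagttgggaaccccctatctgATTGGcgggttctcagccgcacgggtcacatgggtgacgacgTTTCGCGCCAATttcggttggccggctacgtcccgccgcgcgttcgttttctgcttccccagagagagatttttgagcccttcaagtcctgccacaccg

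A CHR word was present in 18 of the 35 promoters, against 16.8% of all protein-coding genes and 12.6% of those open in both libraries. Of 23 genes listed as G2/M genes 16 had it (69.6%), and of 11 listed as G1/S genes 2 had it (18.2%), namely Mcm2 and Mcm7. Bub3, which belongs to neither list, had none. The phase lists come from general knowledge of the cell cycle, not from these libraries.

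In 12 of the 35 promoters a CHR word overlapped a footprint of both libraries, against 1.06% of all protein-coding genes. They were Mki67, Top2a, Ccnb2, Cdk1, Cdc25c, Plk1, Aurkb, Bub1, Cenpf, Kif11, Nusap1 and Mcm7, so that 11 of 23 G2/M genes and 1 of 11 G1/S genes were among them. Counted by match, 13 of 26 CHR words of the 35 genes lay in footprints of both libraries (50%), against 237 of 2060 in open promoters (11.5%). Footprints covered more of the sequences of these genes in general, a mean of 29.0% and 29.7% of the bases against 20.5% and 20.8% for open promoters, and the part of this in the CHR figure was not tested.

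The footprinted CHR words sat close to the start in 8 genes, counting the start base as position 0. In Ccnb2 the word ran from -3 to 2, in Aurkb from 1 to 6, in Cenpf from 2 to 7 and in Cdk1 from 11 to 16. In Bub1 it ran from 20 to 25 and in Plk1 from 26 to 31, while in Cdc25c it ran from -26 to -21 and in Kif11 from -40 to -35. The footprinted words of Mki67, Top2a, Nusap1 and Mcm7 began between -238 and -120. Ccnb2 and Cdk1, shown above, each also have a further CHR word upstream that lies in no footprint of either library.

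E2F words were present in 6 of the 35 promoters, against 3.11% of all protein-coding genes and 4.34% of those open in both. They belonged to Mcm3, Mcm4, Mcm5, Mcm6 and Mcm7, which are 5 of the 11 G1/S genes, and to Cdk1 of the 23 G2/M genes. In all 5 of these helicase genes, 14.3% of the 35, an E2F word overlapped a footprint of both libraries. The share was 1.22% of all protein-coding genes and 1.83% of those open in both. Counted by match, 7 of 13 E2F words of the 35 genes lay in footprints of both libraries (53.8%), against 277 of 670 in open promoters (41.3%). The word of Cdk1, from -105 to -98, lay in no footprint. Mcm2 was the only helicase gene with no E2F word in this window, and none was found in Pcna, Ccne1, Ccne2, Rrm2 or Tyms.

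In Mcm5 and Mcm6 the footprinted E2F words are pairs on opposite strands that share 4 bases, from -213 to -202 in Mcm5 and from -151 to -140 in Mcm6. Mcm7 has its footprinted word from -49 to -42, and the last base of that word is also the start of a CCAAT word. The Mcm4 word ran from -224 to -217 and that of Mcm3 from 19 to 26. A further E2F word of Mcm5, from -8 to -1, lay in no footprint of either library.

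CCAAT was present in 29 of the 35 promoters, against 39% of all protein-coding genes, and 21 of them had it more than once. It was found in 21 of 23 G2/M genes and 8 of 11 G1/S genes. The G2/M genes without it were Ccna2 and Birc5. A CCAAT word overlapped a footprint of both libraries in 15 of the 35 promoters. The share was 7.93% of all protein-coding genes and 11.9% of those open in both. Such a word was present in 13 of 23 G2/M genes against 2 of 11 G1/S genes. Counted by match, 23 of 71 CCAAT words of the 35 genes lay in footprints of both libraries (32.4%), against 2154 of 8725 in open promoters (24.7%). The part of the wider footprint cover of these genes in the CCAAT figures was not tested. Top2a had 6 CCAAT words, 4 of them in footprints of both libraries.

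Words of other promoter factors were also counted. The GC box GGGCGG was present in 28 of 35, against 46.5% of all protein-coding genes and 63.2% of those open in both. The ETS word CCGGAAGT was present in 4 (Aurka, Tyms, Cenpf and Tpx2), against 5.34%, and the CRE word TGACGTCA in 2 (Mcm5 and Cenpe), against 2.73%. The NRF1 word GCGCATGC was in none of the 35, against 4.13%. In further genes of the same pathways, listed apart from the 35, CHR was present in 2 of 26 replication genes and 13 of 29 mitosis genes, and E2F in 8 and 4. In a footprint of either library, CHR was present in 14 of the 23 G2/M genes (60.9%) and 1 of the 11 G1/S genes, against 4 of the further mitosis genes (13.8%) and 1 of the further replication genes. E2F in a footprint of either library was present in 5 of the 11 G1/S genes and none of the G2/M genes, against 4 of the further replication genes (15.4%) and 4 of the further mitosis genes (13.8%). By the same count CHR was present in 1.98% of all protein-coding genes and 2.97% of those open in both, and E2F in 1.71% and 2.57%. The differences between the lists were not tested. In 31 proteasome genes, taken as housekeeping genes with promoters of like signal (median 5.24 and 6.57), CHR was present in 3, E2F in 1 and CCAAT in 12.

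**Figure D2:**
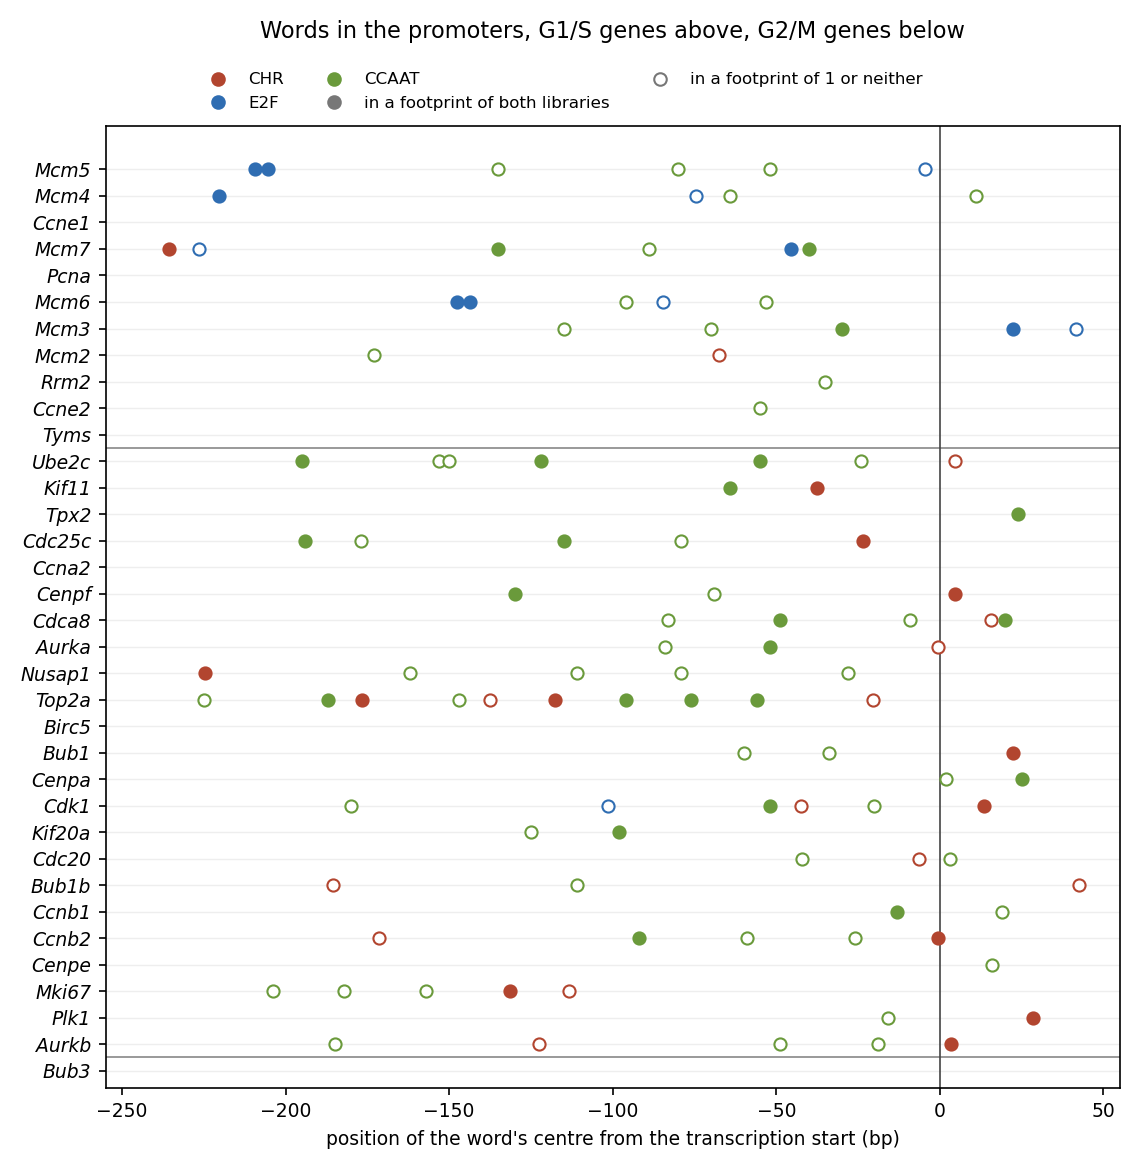
Position of CHR, E2F and CCAAT words (x axis, bp from the transcription start at 0) in the promoter of each of the 35 genes (y axis), with G1/S genes at the top, G2/M genes below them and Bub3 last. Filled points lie in a footprint of both libraries; filled E2F points occur in the 5 genes Mcm3 to Mcm7 and filled CHR points in 11 G2/M genes and Mcm7.

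**Figure D3:**
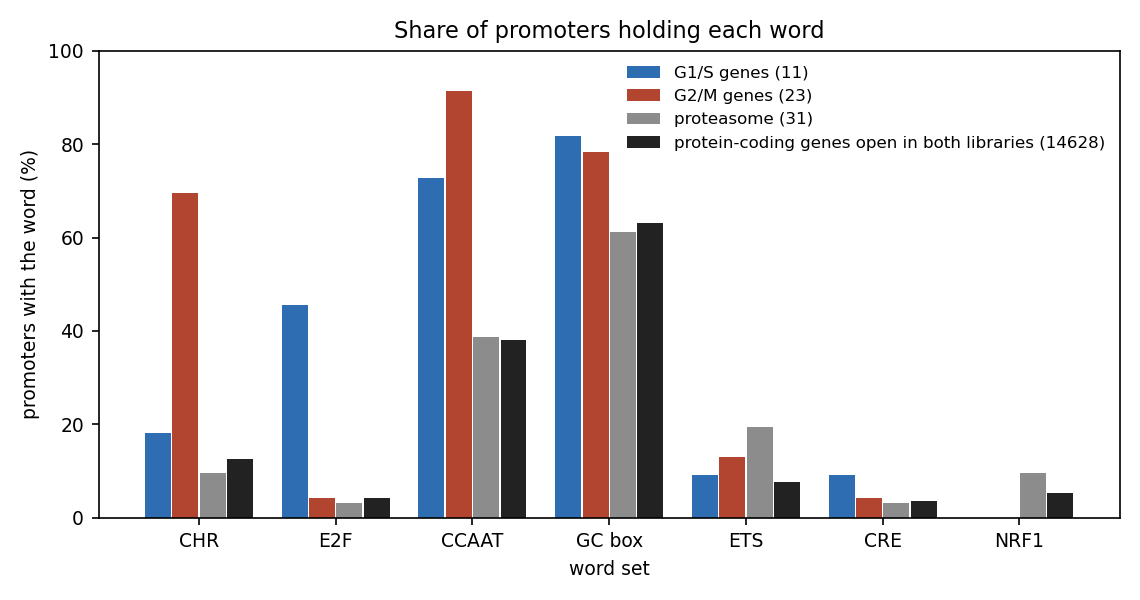
Percent of promoters (y axis) that hold each word set (x axis) among 11 G1/S genes, 23 G2/M genes, 31 proteasome genes and 14628 protein-coding genes open in both libraries. CHR stands at 69.6% in the G2/M genes, and E2F at 45.5% in the G1/S genes.

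Away from promoters the share of cell cycle genes with an accessible site was near that of all genes. It was below that of genes with open promoters, which all 35 have, and the difference was not tested. A distal peak here is a peak overlapping the gene or the 10 kb on either side of it, with its centre more than 1000 bp from every annotated start. Such a peak was found in both libraries for 22 of the 35 genes (62.9%), against 68.2% of all protein-coding genes. The share was 80.2% of those open in both and 73.3% of open genes of like window length. No distal peak was found in either library for 10 genes (28.6%), against 23.6% of all protein-coding genes, 12.1% of those open in both and 16.5% of open genes of like window length. Those 10 were Mcm4, Ccna2, Mcm7, Top2a, Birc5, Cenpa, Mcm2, Kif20a, Ccnb1 and Tyms, which include both high and low promoters. The median density was 0.306 distal peaks per 10 kb in replicate 1 and 0.268 in replicate 2 (mean 0.287 ± 0.0267), against 0.396 and 0.403 for all protein-coding genes and 0.473 and 0.489 for genes open in both libraries (mean 0.481 ± 0.0111). Open genes of like window length had 0.478 and 0.488, and the proteasome genes had 0.437 and 0.418.

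The lower density depended on the distance searched and on the peaks counted. With 10 kb on either side the mean of the library medians was 0.287 for the 35 genes, against 0.400 for all protein-coding genes. With 50 kb it was 0.560, against 0.472, and the order was turned round. With the stricter peak list it was 0.202, against 0.210. Within the body of the gene itself a distal peak was centred in both libraries for 7 of 35 genes (20%), against 45.7% of all protein-coding genes. It was 57.5% of genes open in both libraries and 42.1% of open genes of like window length. The share was 19.4% of the proteasome genes, 38.5% of 26 further replication genes and 37.9% of 29 further mitosis genes. The median gene length was 14.3 kb for the 35 genes and 17.4 kb for all protein-coding genes.

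The genes held 63 distal peaks in replicate 1 and 58 in replicate 2. Of these, 81% and 86.2% overlapped a peak of the other library, against 77.1% and 73.7% of all distal peaks. Aurkb had the most, 10 and 9, all upstream of its start. Centred at -9586 to -3836 bp from the start, they reached signals of 6.50 in replicate 1 and 6.11 in replicate 2, above the promoter of Aurkb itself at 2.27 and 2.39. A cluster of 7 tRNA genes annotated by RefSeq lies in this stretch, chr11:69037003-69041897 in mm10, and 7 of the Aurkb peaks in each library were centred within 500 bp of a tRNA gene. No distal peak of the other 34 genes was, and over all distal peaks the share was 0.244% and 0.222%. The Aurkb peaks near tRNA genes reached 6.50 in replicate 1 and 5.62 in replicate 2. The peak of 6.11 in replicate 2 lay inside the gene Ctc1 and was not one of them. The tRNA genes were looked up after the values were seen.

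Cenpf had 8 distal peaks in each library, with signals up to 1.20 in replicate 1 and 1.79 in replicate 2, and 6 and 5 of them were centred in its own body. Mcm5 had 4 and 4, all in the flank beyond its end. They were centred between 9604 and 14694 bp from the nearest of its annotated starts, which is not its 5′ end. Cdk1 had 5 and 3, of which the strongest had 0.947 and 0.958. That peak lay in the flank beyond the end of Cdk1. It was 16028 bp from the nearest annotated start of the gene, again not its 5′ end. Bub1b had 4 and 4 and Ccnb2 3 and 4. The remaining genes with distal peaks had 3 or fewer in each library. No link from a distal peak to a gene was measured.

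**Figure D4:**
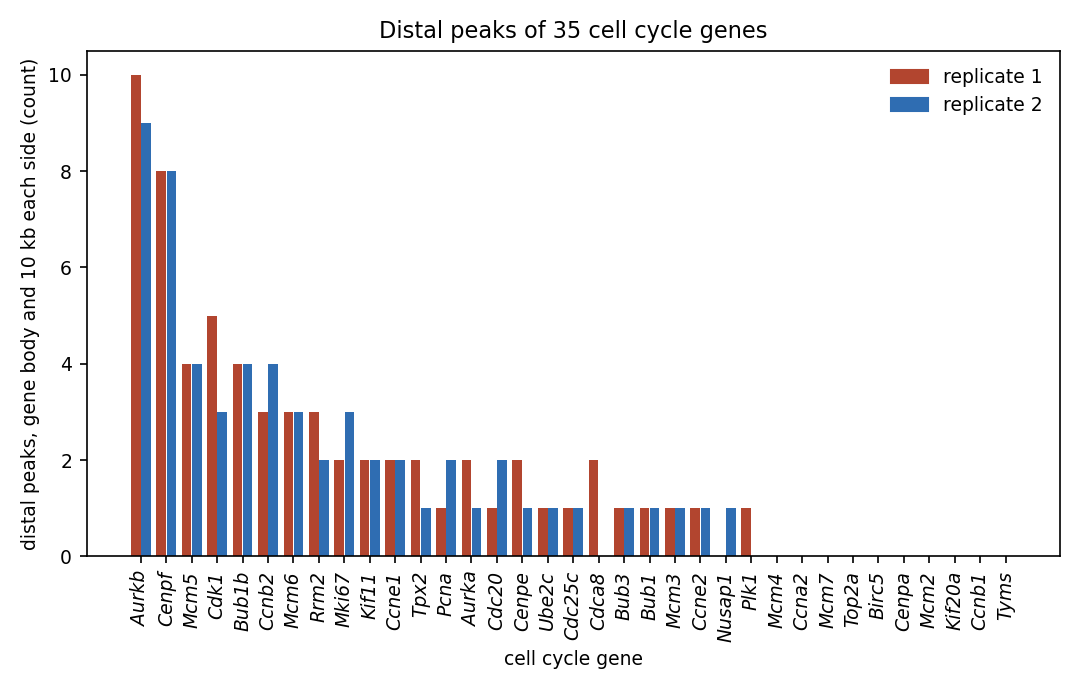
Number of distal peaks (y axis) in the body and the 10 kb on either side of each of the 35 genes (x axis, ordered by the sum over libraries), with 1 bar per library. Aurkb has 10 and 9, Cenpf has 8 and 8, and the last 10 genes have none in either library.

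Genes of the same pathways outside the 35 were open as well. Of 26 further replication genes all had a promoter peak in both libraries, with median signals of 5.38 in replicate 1 and 6.55 in replicate 2. All 29 further mitosis genes had one, with 5.99 and 6.82. The share was 66.7% of all protein-coding genes, but all 31 proteasome genes and all 20 excitatory neuron genes had one too. The highest mitosis gene was Fzr1, which holds the anaphase-promoting complex active in G1 and in resting cells, at 14.6 and 21.1. It was followed by Ect2, a regulator of cytokinesis, at 11.0 and 14.6, and by Nek2, a centrosome kinase, at 9.55 and 13.6. The highest replication genes were Gins2 (9.14 and 13.2), Orc4 (8.30 and 13.0, in a window shared with Mbd5) and Gins4 (9.86 and 11.0), which belong to the helicase and the origin recognition complex. These lists gave medians near those of the 35 genes.

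All 20 genes of the E2F, retinoblastoma and DREAM proteins were open in both libraries, against 66.7% of all protein-coding genes. Their medians were 4.14 in replicate 1 and 4.37 in replicate 2. The highest were E2f3, at 10.1 and 18.4, Lin37, a subunit of DREAM, at 8.58 and 13.1, and Lin52, another subunit, at 6.64 and 13.2 in a window shared with Aldh6a1. Foxm1 and Mybl2, activators of the mitotic genes that are named after their values were seen, were below the open-promoter medians in both libraries. Foxm1 had 2.62 and 2.91 in a window shared with Rhno1, and Mybl2 had 2.62 and 2.79. The 13 genes of G1 cyclins, their kinases and the inhibitors of those kinases were open with medians of 2.60 and 2.78, and led by Cdkn2d at 12.4 and 17.2, Cdk4 at 10.3 and 11.8 and, by mean, Cdkn1b at 3.96 and 4.53. Cdkn2d encodes the inhibitor p19 of the INK4 family. Of the germline cyclins, Ccna1 had 1.84 and 1.82 and Ccnb3 had no promoter peak in either library.

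Cell cycle genes and genes of excitatory neurons had contrasting layouts. Median promoter signals were 5.23 in replicate 1 and 6.93 in replicate 2 for the 35 cell cycle genes, against 2.38 and 2.83 for 20 excitatory neuron genes. The cell cycle genes held 63 and 58 distal peaks, against 272 and 292 for the neuronal genes. At the median this was 0.306 and 0.268 per 10 kb, against 1.03 and 1.19. With all windows of a list pooled the contrast was smaller, 0.456 and 0.420 per 10 kb against 0.754 and 0.809. Gene and flanks together spanned a median of 34.3 kb for the cell cycle genes and 142 kb for the neuronal genes. All 20 neuronal genes had a distal peak in both libraries, against 68.2% of all protein-coding genes and 80.2% of those open in both.

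**Figure D5:**
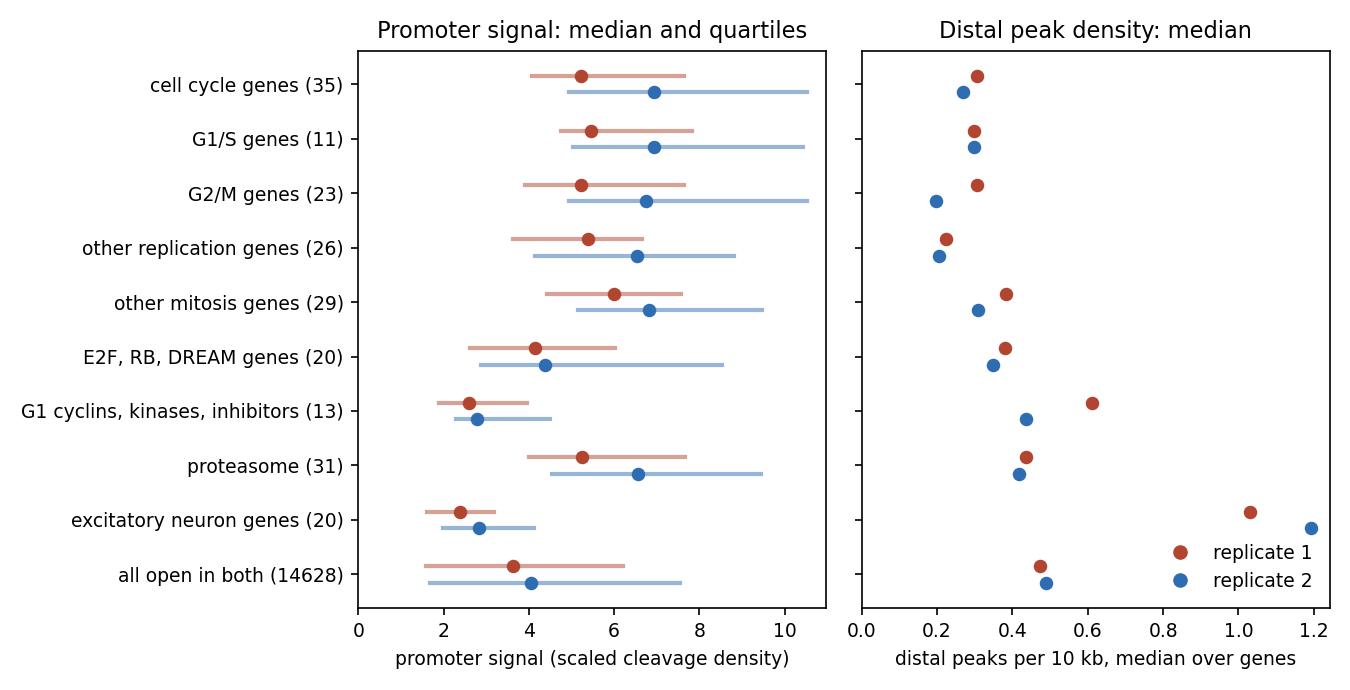
Left, median promoter signal (point) and quartiles (line) per library for the 35 cell cycle genes, their G1/S and G2/M lists, further pathway genes, proteasome genes, excitatory neuron genes and all genes open in both libraries; right, the median number of distal peaks per 10 kb. The 35 genes have medians of 5.23 and 6.93 on the left and 0.306 and 0.268 on the right; the excitatory neuron genes have 2.38 and 2.83, and 1.03 and 1.19.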

How the data were processed

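DNase-seq files of left cerebral cortex from 14-day-old male B6CASTF1/J mice (n = 2 libraries) were used as deposited. Per the labels and file headers the coordinates are mm10; neither aligner nor peak caller was given in the sources used here. The signal values in column 7 of the peak lists were scaled by the authors and rise in whole steps of 0.00474 in replicate 1 and 0.00614 in replicate 2 (100% of 92444 and of 81657 heights under 0.7 lay within 0.05 of a step), so the median promoter of the 35 genes was 1105 and 1128 steps high. The deposited footprint files carry only the authors' p-value threshold of 0.01, and the deposited cut rate files give false discovery rates (q-values).

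Peaks of the larger list were assigned to GENCODE M21 genes on 21 chromosomes with Python 3.11.15 and NumPy 2.4.6, and the method was checked on simulated data. Sequences came from the RefSeq GRCm38.p6 assembly; none is shown from chromosome 18. Genes whose values are given were the 8 highest, the 6 lowest, those with the largest ratios between libraries, those with most distal peaks or a shared start and at least 1 per role. Members and lists were chosen with earlier results of these data known. Alternatives changed the peak list, windows, flank, starts, height limit, overlap and scaling, or left out a library.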

Additional observations from a re-analysis of the deposited data

How the results depend on the processing

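Of 57 recomputed values, 48 stayed within the spread between libraries or within 1.5 times the count given, and 9 did not. The 35 open promoters stayed 35 with the stricter peak list (62.2% of all protein-coding genes) and the stronger 50% of peaks (60.9%). They also stayed 35 with windows of 500 bp (64.8%) and 2500 bp (70.5%). They were 34 where only the 5′ end of the gene model counted (61.9%), as Cdca8 had no peak there. They were also 34 where the strongest peaks had to overlap between libraries. Genes with a distal peak in both libraries numbered 7 with no flank (45.8% of all protein-coding genes) and 34 with a flank of 50 kb (88.8%). The median distal density was 0.202 per 10 kb with the stricter list (0.210 over all protein-coding genes), 0.336 with a window of 500 bp (0.483), 0.259 with 2500 bp (0.279), 0 with no flank (0), 0.560 with 50 kb (0.472) and 0.136 with the stronger 50% of peaks (0.161). Leaving out distal peaks near tRNA genes, an alternative chosen after seeing the data, kept 22 genes and 0.287. CCAAT words in a footprint of either library were found in 19 promoters (11.8% of all protein-coding genes and 17.6% of those open in both). With 1 library left out, the open promoters stayed at 35, the median signal ran from 5.23 to 6.93, genes with a distal peak from 23 to 24 and the density from 0.268 to 0.306. No paired analysis was possible because there is 1 group.

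The labels do not say whether the n = 2 libraries came from different animals, so the SDs cover the spread between these libraries and no more. Read depth is unknown, so a missing peak or footprint means that none was listed. CHR words are 6 letters long, and 16.8% of all promoters hold one.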
